A study of Canis lupus familiaris with 6 samples.

Results

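The 9 genes described here are established transcriptional targets of p53: MDM2, CDKN1A, GADD45A, BAX, BBC3, FAS, SESN1, TP53INP1 and RRM2B. They were found by symbol in the gene table, which lists 35993 genes, and all 9 passed the filter on low counts that kept 14708 genes for testing. CPEK is a wild-type line of canine epidermal keratinocytes, the main cells of the outer skin layer. One group of 3 libraries came from CPEK cells treated directly for 30 s with cold atmospheric microwave plasma (dCAMP), an ionized gas produced near room temperature. The other 3 libraries came from cells given the gas without plasma (gas control). In both groups the medium was exchanged after 15 min and RNA was taken 24 h later, so the cells of each group had the same medium change and the same time in fresh medium. A single line was used, and all libraries were stranded mRNA libraries.

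p53 is a transcription factor that is held at a low level by MDM2, an E3 ubiquitin ligase which is itself a p53 target and so closes a feedback loop. DNA damage and oxidative stress stabilize p53, which can then raise genes that stop the cell cycle, genes that promote apoptosis, and genes that limit reactive oxygen species or supply nucleotides for repair. In epidermis the pathway is best known for the response to ultraviolet light, and p53 control acts largely on the protein, which RNA-Seq does not measure.

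Total counts were between 43084921 and 54082634 per library. The keratinocyte label was checked against 10 markers, all of which were tested; KRT5, the basal keratin, was at 21828 to 28157 CPM (counts scaled to the TMM-normalized library size). Of 12 markers of fibroblasts, melanocytes, immune and endothelial cells, 6 were kept by the filter, none of them above 1.77 CPM in any library. DCN, PDGFRB, TYR, PTPRC, CD3E and PECAM1 had 0 counts in every library, which allows up to 3 counts in each. At an unadjusted p under 0.05 in edgeR's quasi-likelihood test, 6.81% of all genes were higher in dCAMP and 13.9% lower. Of the 10 keratinocyte markers, 2 were higher and 2 lower at that p, and of the 6 other markers tested, 2 were higher and 1 lower. The keratinocyte markers were DSG3, a desmosomal cadherin (log2 fold change 0.52), and ITGA6, an integrin (0.35), both higher, and the keratins KRT14 (−0.30) and KRT5 (−0.21), both lower. Of the other markers, CDH5 (0.69, at 0.339 to 0.933 CPM) was higher and COL1A1 (−0.68, at 0.575 to 1.58 CPM) lower, and MLANA, also higher, had 4, 0 and 0 counts in gas and 13, 16 and 11 in dCAMP. The part of these markers in the results below was not tested. The gas libraries stood further apart from each other than the dCAMP libraries did: the median SD of log2 CPM over the genes tested was 0.238 among gas libraries and 0.0846 among dCAMP libraries. Gas 1 was the lowest library in 84.3% of the 2796 genes with all dCAMP libraries above all gas libraries, and gas 3 was the highest gas library in 2374 of them. In the 3072 genes with all dCAMP libraries below all gas libraries, gas 3 was the lowest gas library in 85.6%. Gas 3 was thus mostly the gas library nearest to dCAMP in both directions. The fold changes of the 9 targets and the counts of each list are therefore also given without gas 1 and without gas 3.

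The comparison of dCAMP with gas asks whether the p53 targets of each role differed 24 h after plasma. SESN1, TP53INP1 and RRM2B, of the antioxidant and nucleotide supply role, and MDM2, the feedback gene, were higher in every dCAMP library than in any gas library. CDKN1A and GADD45A (arrest) and BAX, BBC3 and FAS (death) overlapped between groups. With p-values adjusted over all genes tested, 0 of the 9 targets passed 0.05, and 0% of all genes did (0 of 14708, against 3040 at an unadjusted p under 0.05; DESeq2 called 301 and 161 genes under its 2 filters, 1.48% and 1.05% of those tested, and 0 of the 9 targets under either).

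By the rule of at least a 2-fold difference with an unadjusted p under 0.05, 1 of the 9 targets was called, TP53INP1, and 1.09% of all genes were. At an unadjusted p under 0.05 alone, 2 of 9 were higher, SESN1 and TP53INP1, where 6.81% of all genes were higher. That count was 4 of 9 without gas 1 (MDM2, SESN1, TP53INP1 and RRM2B, where 8.75% of all genes were higher) and 4 of 9 without gas 3 (the same 4 genes, where 23.8% were). None of the 9 was lower at that p, where 13.9% of all genes were lower. Without gas 1 it was again 0 of 9 (11.8% of all genes), and without gas 3 it was 1 of 9, FAS (25.5%). By library values, 4 of 9 had all dCAMP libraries above all gas libraries, a pattern held by 19% of all genes, and 0 of 9 had the reverse pattern, held by 20.9%. The same 4 targets were separated with RLE, upper-quartile or total-count scaling and in FPKM. The median log2 fold change of the 9 was 0.10, beside 0.03 over all genes tested. By role the medians were 0.80 for antioxidant and nucleotide supply, 0.10 for arrest and feedback and −0.08 for death, each over 3 genes and given with no test. In these bulk samples, fewer cells with a transcript and less of it per cell cannot be told apart.

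**Figure D1:**
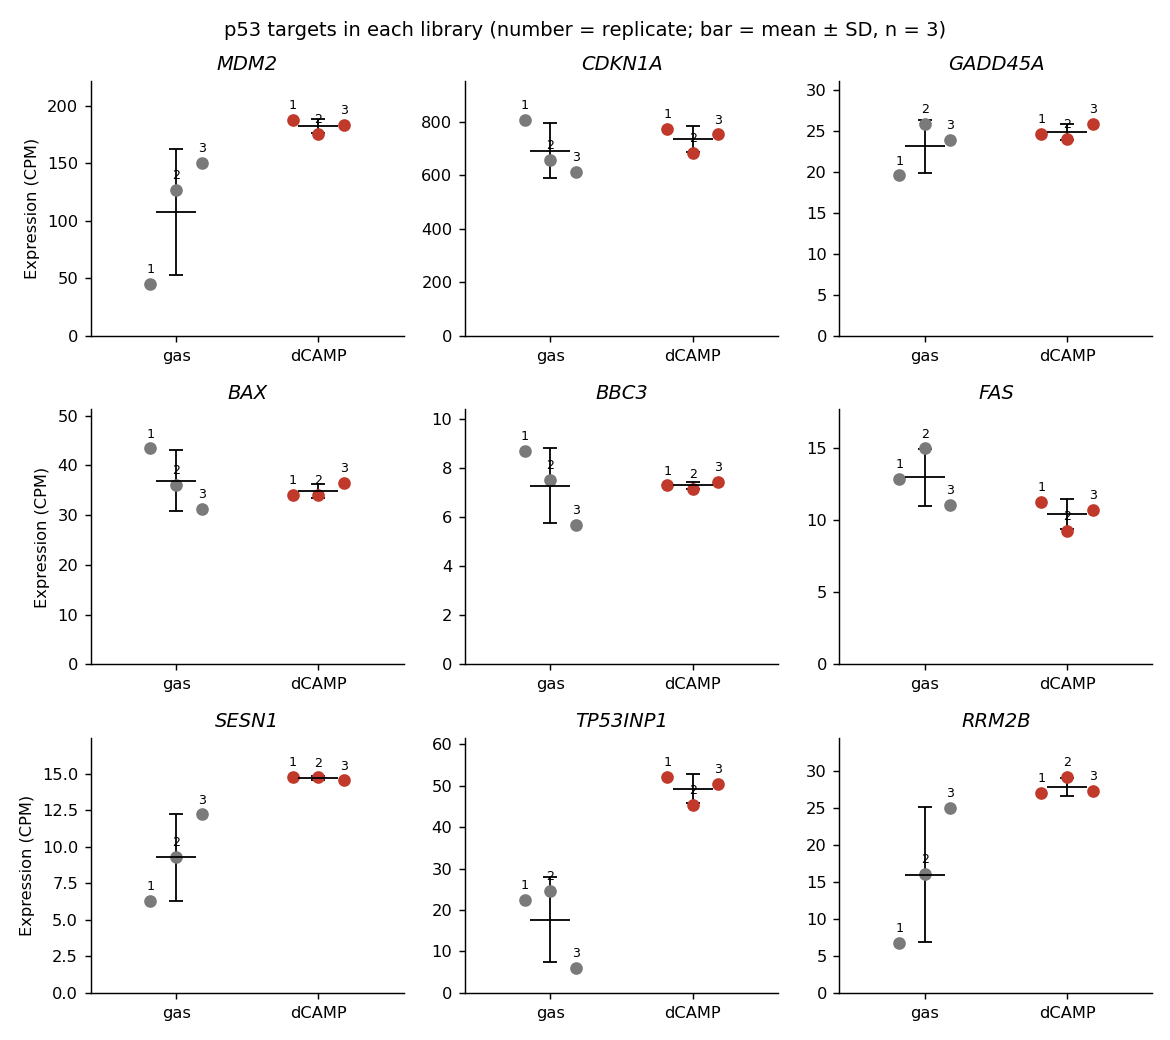
CPM of the 9 p53 targets in each of the 3 gas and 3 dCAMP libraries (points), with group means and SD (lines). The dCAMP points lie close together in most panels; MDM2, SESN1, TP53INP1 and RRM2B are higher in all dCAMP libraries, with gas 1 lowest in MDM2, SESN1 and RRM2B and gas 3 lowest in TP53INP1.

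Per transcript length, the 9 targets spanned a wide range of levels. In FPKM (fragments scaled to transcript length and mapped reads, so that genes can be compared), the mean level over 6 libraries was 304 for CDKN1A, 60.5 for MDM2, 59.0 for BAX and 17.3 for GADD45A. TP53INP1 followed at 6.05, FAS at 5.11, RRM2B at 5.04, SESN1 at 3.39 and BBC3 at 3.34. CDKN1A lay above MDM2 in every library range, as BAX did above GADD45A and GADD45A above TP53INP1. MDM2 and BAX overlapped in their ranges, and so did each neighbouring pair from TP53INP1 down to BBC3, so their order was not resolved. The arrest gene CDKN1A was the highest in both groups. SESN1, TP53INP1 and RRM2B, which were higher in dCAMP, had mean levels of at most 6.05, as did the death genes FAS and BBC3.

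MDM2 (gene ID 403693, CanFam3.1 chr10:10936288-10963118) had 45.5, 127 and 149.9 CPM in gas libraries 1, 2 and 3. The dCAMP libraries had 188, 176 and 183 CPM. All dCAMP libraries were above the gas libraries, and gas 1 was far below the other gas libraries, at 25.0% of the dCAMP mean, where gas 2 was at 69.7% and gas 3 at 82.3%. The means were 107 ± 54.9 in gas and 182 ± 6.04 CPM in dCAMP (SD, n = 3 each), a fitted 1.69-fold difference. The log2 fold change of 0.76 (SE 0.41) had an unadjusted p of 0.107 and an adjusted p of 0.289. Without gas 1 it was 0.38 (adjusted p = 0.196), and without gas 3 it was 1.04 (adjusted p = 0.097). An adjusted p under 0.05 was reached by 33.1% of all genes without gas 3, and by 1 gene without gas 1. MDM2 has 6 transcripts in the table, and all 6 reached 10 counts in some library. How the counts were divided among them varied within each group. The 2203-base transcript took 50.5%, 29.7% and 47.9% of the MDM2 count in the gas libraries. It took 41.5%, 65.6% and 20.9% in the dCAMP libraries. The ranges overlapped, and the gene-level sum is used here.

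CDKN1A (gene ID 474890, chr12:5746898-5755103) encodes p21, the inhibitor of cyclin-dependent kinases that carries most of the p53-dependent arrest at the entry to S phase. It had 806, 657 and 612 CPM in gas libraries 1 to 3. It had 772, 682 and 752 CPM in the dCAMP libraries. Gas 1 was the highest of the 6 libraries and gas 3 the lowest, so the dCAMP values lay inside the gas range. The means were 692 ± 102 and 735 ± 47.6 CPM (SD, n = 3 each), and the log2 fold change was 0.09 (SE 0.12, unadjusted p = 0.492, adjusted p = 0.627). It was 0.19 without gas 1, −0.04 without gas 3 and −0.0090 with upper-quartile factors, so its sign was not settled. Its 2069-base transcript held 86.8% to 96.5% of the count in each library.

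GADD45A (gene ID 100855728, chr6:77393026-77396473), a stress protein that restrains the G2 to mitosis step, had 19.6, 25.9 and 23.8 CPM in gas. Its dCAMP values were 24.6, 24.0 and 25.8 CPM. Gas 1 was the lowest library and gas 2 the highest. The means of 23.1 ± 3.22 and 24.8 ± 0.946 CPM (SD, n = 3 each) gave a log2 fold change of 0.10 (SE 0.13, unadjusted p = 0.457, adjusted p = 0.598), which was −0.02 without gas 1.

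BAX (gene ID 403523, chr1:107423388-107426464), which opens the outer mitochondrial membrane, had 43.4, 36.1 and 31.3 CPM in gas and 34.0, 34.0 and 36.6 CPM in dCAMP. Gas 1 was the highest and gas 3 the lowest of the 6. The means were 36.9 ± 6.12 and 34.9 ± 1.48 CPM (SD, n = 3 each). The log2 fold change was −0.08 (SE 0.14, unadjusted p = 0.574, adjusted p = 0.695), and it was 0.03 without gas 1. An uncharacterized locus overlaps BAX, but it held at most 8 counts in any library.

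BBC3 (gene ID 612153, chr1:108742793-108750832) encodes PUMA, a BH3-only protein that releases BAX from its inhibitors. Its gas values were 8.68, 7.50 and 5.67 CPM, and its dCAMP values were 7.29, 7.16 and 7.44 CPM. The dCAMP libraries lay between the gas libraries. With means of 7.29 ± 1.52 and 7.30 ± 0.137 CPM (SD, n = 3 each), the log2 fold change was 0.00 (0.0026, SE 0.17, unadjusted p = 0.988, adjusted p = 0.993). Its sign changed under most settings, with values from −0.19 without gas 3 to 0.13 without gas 1.

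FAS (gene ID 486469, chr26:38738811-38763298), the cell-surface death receptor, had 12.9, 15.0 and 11.1 CPM in gas. It had 11.3, 9.26 and 10.7 CPM in dCAMP. The overlap came from gas 3, which lay just below dCAMP 1 (11.08 against 11.29 CPM). The means were 13.0 ± 1.95 and 10.4 ± 1.04 CPM (SD, n = 3 each). The log2 fold change of −0.32 (SE 0.15) was the lowest of the 9 targets, with an unadjusted p of 0.0806 and an adjusted p of 0.265. Without gas 3 it was −0.46 with an adjusted p of 0.048, where 33.1% of all genes passed 0.05. Without gas 1 it was −0.34 with an adjusted p of 0.270. FAS was below its gas mean in 3 of 3 dCAMP libraries, as BAX was, and GADD45A was above its gas mean in 3 of 3. The share of all genes with such a pattern was not computed. Without gas 1 the log2 fold changes of BAX and GADD45A had the other sign (0.03 and −0.02).

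SESN1 (gene ID 481956, chr12:65958995-66057369) encodes sestrin 1, which supports the recycling of peroxiredoxins and restrains mTORC1. The gas libraries had 6.29, 9.33 and 12.2 CPM, and the dCAMP libraries had 14.8, 14.7 and 14.5 CPM. The dCAMP values were nearly equal and above all gas values, which stood at 42.8%, 63.5% and 83.2% of the dCAMP mean. The means were 9.28 ± 2.97 and 14.7 ± 0.130 CPM (SD, n = 3 each), a fitted 1.58-fold difference. Its log2 fold change of 0.66 (SE 0.24) had an unadjusted p of 0.0294 and an adjusted p of 0.226. It was 0.43 without gas 1, with an adjusted p of 0.201. It was 0.86 without gas 3, with an adjusted p of 0.025, where 33.1% of all genes passed 0.05. In FPKM the values were 1.78, 2.67 and 3.42 in gas and 4.16, 4.05 and 4.27 in dCAMP, the same separation on the scale per length. An uncharacterized locus that overlaps SESN1 held at most 5 counts.

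RRM2B (gene ID 481988, chr13:3774725-3838576) encodes the p53-inducible small subunit of ribonucleotide reductase, which supplies deoxynucleotides outside S phase. It had 6.81, 16.1 and 25.0 CPM in gas libraries 1 to 3 and 27.0, 29.2 and 27.3 CPM in the dCAMP libraries. All dCAMP values were above the gas values, but the gas libraries ranged from 24.5% to 89.9% of the dCAMP mean. The means were 15.96 ± 9.11 and 27.8 ± 1.19 CPM (SD, n = 3 each), a fitted 1.74-fold difference. Its log2 fold change of 0.80 (SE 0.43) had an unadjusted p of 0.107 and an adjusted p of 0.289. Without gas 1 it was 0.42 with an adjusted p of 0.235. Without gas 3 it was 1.23 with an adjusted p of 0.046, where 33.1% of all genes passed 0.05. The 3846-base transcript held most of the counts in every library.

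**Figure D2:**
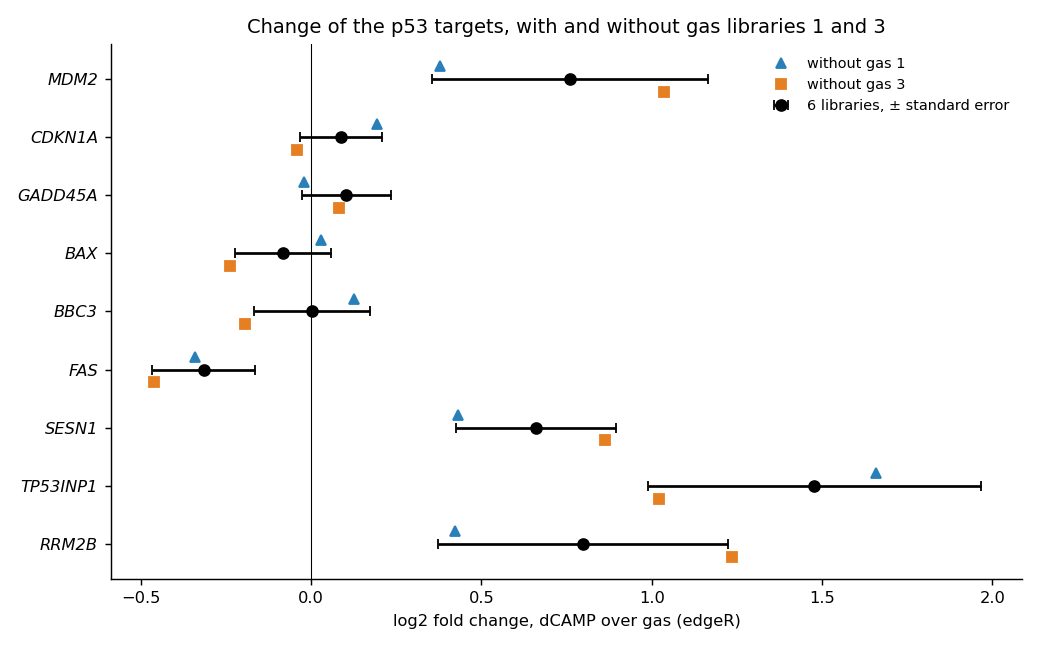
Log2 fold change (dCAMP over gas, edgeR) for the 9 p53 targets, in all 6 libraries (black, bars are SE), without gas 1 (triangles) and without gas 3 (squares). The values of MDM2, SESN1 and RRM2B are smaller without gas 1 and larger without gas 3. Those of CDKN1A, GADD45A, BAX and BBC3 lie on both sides of 0.

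TP53INP1 (gene ID 611710, chr29:39575782-39593389) encodes a stress protein that takes part in p53 activation, redox control and autophagy, and it had the largest fold change of the 9 targets. Its gas values were 22.5, 24.6 and 5.99 CPM, and its dCAMP values were 52.1, 45.4 and 50.3 CPM. All dCAMP libraries were above the gas libraries, and gas 3 stood far below the other gas libraries. The means were 17.7 ± 10.2 and 49.3 ± 3.47 CPM (SD, n = 3 each), a fitted 2.79-fold difference. The log2 fold change of 1.48 (SE 0.49) had an unadjusted p of 0.0217 and an adjusted p of 0.221. Without gas 1 it was 1.66 with an adjusted p of 0.203. Without gas 3 it was 1.02 with an adjusted p of 0.020, where 33.1% of all genes passed 0.05.

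The gas 3 value of TP53INP1 depended on the unit. In FPKM, TP53INP1 was at 3.61, 3.69 and 3.72 in the gas libraries. It was at 8.33, 9.54 and 7.42 in the dCAMP libraries. On this scale the 3 gas libraries were nearly equal, at 3.68 ± 0.0558 against 8.43 ± 1.06 FPKM (SD, n = 3 each), a ratio of 2.29. With limma on log2 of FPKM plus 0.1, the log2 fold change was 1.17 with an unadjusted p of 6.8e-05 and an adjusted p of 0.17.

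The transcripts of TP53INP1 show where the units part. Its 6093-base transcript had 1011, 1273 and 0 counts in gas libraries 1 to 3 and 2338, 1672 and 2259 in the dCAMP libraries. The 1506-base transcript had 15, 11 and 149 counts in gas and 0, 211 and 3 in dCAMP. The 1303-base transcript had 14, 9 and 169 counts in gas and 77, 64 and 8 in dCAMP. All of the gas 3 count was thus on short transcripts, where the other libraries had between 0.660% and 14.1% there. Since a short transcript yields fewer fragments at the same abundance, the count and the FPKM of gas 3 rank differently. The length that count and FPKM together imply for TP53INP1 was 1579 bases in gas 3 and 4738 to 6856 bases in the other libraries, a ratio of 4.34 between the highest and the lowest. Among the other 8 targets this ratio was at most 1.05. Of 13616 genes with at least 10 counts in every library, 0.330% had a ratio above 2, and 0.0220% had one at or above that of TP53INP1. Whether the short transcripts were present in gas 3 or were an effect of how reads were assigned to transcripts was not tested.

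**Figure D3:**
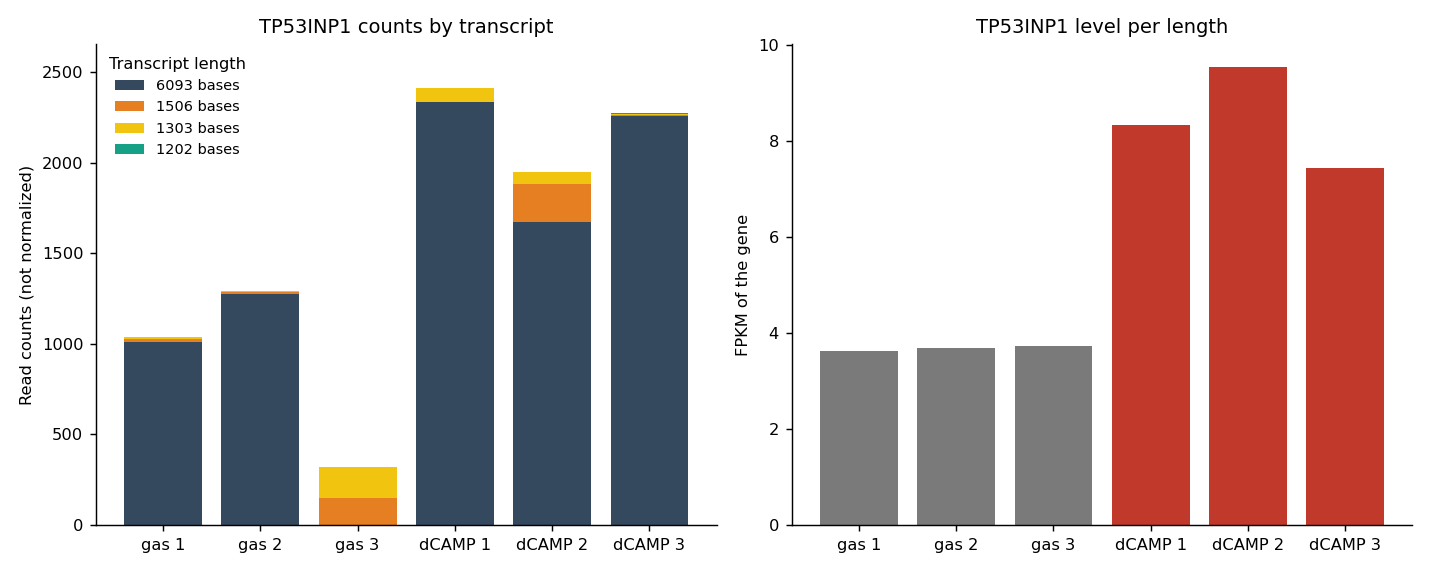
TP53INP1 in each library: counts on each of its transcripts, named by length in bases, and gene-level FPKM. Gas 3 has 0 counts on the 6093-base transcript, and its FPKM of 3.72 is close to the 3.61 and 3.69 of the other gas libraries.

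The position of the gas libraries within the separated genes is given beside the 4 targets. Gas 1 was lowest in MDM2, SESN1 and RRM2B, as in 84.3% of all genes with dCAMP above gas, while gas 3 was lowest in TP53INP1 by CPM, as in 5.83% of them. The gas libraries also differed from dCAMP by gene length: the median log2 ratio of gas to the dCAMP mean was 0.18, 0.11 and 0.03 for gas 1, 2 and 3 among the shortest genes (mean transcript length up to 1823 bases). Among the longest genes (from 3431 bases) it was −0.26, −0.17 and −0.03. With each library's trend on length removed, the log2 fold change was 0.77 for MDM2, 0.58 for SESN1, 0.70 for RRM2B and 1.20 for TP53INP1, and TP53INP1 then had an unadjusted p of 0.057. The part of length or of a library in these values was not tested further.

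Without gas 3, 4 of the 9 targets passed an adjusted p of 0.05, FAS below gas and SESN1, TP53INP1 and RRM2B above, where 33.1% of all genes passed. With voom weights for each library, 6 of 9 passed (MDM2, CDKN1A, FAS, SESN1, TP53INP1 and RRM2B), where 60.8% of all genes did; gas 1 and gas 3 then had weights of 0.115 and 0.192, against 6.73 for gas 2. Without dCAMP 1, and likewise without dCAMP 3, 0 of the 9 passed the 2-fold rule or an unadjusted p of 0.05. Fewer genes in all passed that p there: 1230 of 14947 and 1024 of 14926, against 3040 of 14708 with all libraries. By the 2-fold rule 139 and 136 genes were called, against 161. SESN1 also missed that p without gas 2 or without dCAMP 2, where TP53INP1 was the 1 target that passed it. In those fits 1235 of 14975 and 1441 of 14998 genes passed it.

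Beside MDM2, 19 relatives and regulators of p53 were listed, and all were tested. At an unadjusted p under 0.05, 0 were higher and 1 was lower (background 6.81% and 13.9%), and the median log2 fold change was 0.14. Without gas 1 the counts were 1 and 1 (8.75% and 11.8% of all genes), and without gas 3 they were 4 and 3 (23.8% and 25.5%). The lower gene was WRAP53, with a role in telomerase trafficking, which had a log2 fold change of −0.38 (unadjusted p = 0.0234). MDM4, the partner of MDM2 that blocks p53's activation domain, had 16.1, 29.8 and 44.9 CPM in gas and 42.8, 39.8 and 42.0 CPM in dCAMP. Gas 3 lay above all dCAMP libraries, and the log2 fold change of 0.46 had an adjusted p of 0.392. PPM1D, the phosphatase WIP1 that switches the response off, had a log2 fold change of 0.18 with an adjusted p of 0.403.

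Outside the 9, 54 further p53 targets were listed by role, of which 52 were matched and 50 tested. At an unadjusted p under 0.05, 4 were higher (8%) and 9 lower (18%), where 6.81% and 13.9% of all genes were, and none passed the adjusted threshold in edgeR with all libraries. By library values, 11 had all dCAMP libraries above all gas libraries (22%) and 16 the reverse, where 19% and 20.9% of all genes did, and the median log2 fold change was 0.02, near the 0.03 of all genes. Without gas 3 the counts at an unadjusted p under 0.05 were 15 higher and 18 lower (23.8% and 25.5% of all genes), and without gas 1 they were 7 and 8 (8.75% and 11.8%). Without gas 2, dCAMP 1, dCAMP 2 or dCAMP 3, between 2 and 3 were higher and between 0 and 3 lower. Of all genes, 1235, 1230, 1441 and 1024 passed in either direction in these fits, against 3040 with all libraries. With upper-quartile factors and with DESeq2 the counts were 7 and 10. Of all genes, 3162 of 14708 passed in either direction with upper-quartile factors. Under the 2 DESeq2 filters, 3504 of 20284 and 3314 of 15304 did. More were higher than lower with the replicate block, at 9 and 6 with or without the length correction, where 9.56% and 9.31% of all genes were higher and lower with the block alone. On FPKM the counts were 9 and 9 with either pseudocount, where 11.9% and 11.8% of all genes were higher and lower with a pseudocount of 1, and 10.7% and 11.8% with 0.1. By adjusted p, 11 were higher and 11 lower without gas 3, where 33.1% of all genes passed in either direction. With voom weights 19 were higher and 18 lower, where 60.8% of all genes passed. With DESeq2 on all genes 1 was higher, where 1.48% passed. The balance of higher and lower targets thus depended on the fit.

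Of the 14 other arrest and feedback targets tested, 0 were higher and 4 lower at that p, where 6.81% and 13.9% of all genes were. The counts were 2 and 3 without gas 1 (8.75% and 11.8% of all genes) and 4 and 6 without gas 3 (23.8% and 25.5%). They were 2 and 2 with the replicate block (9.56% and 9.31%), and 2 and 4 with DESeq2 or upper-quartile factors. In either direction, 3162 of 14708 genes passed with upper-quartile factors. Under the 2 DESeq2 filters, 3504 of 20284 and 3314 of 15304 did. SFN encodes 14-3-3 sigma, which holds cyclin B-CDK1 in the cytoplasm and marks differentiating keratinocytes. It had 3089, 2669 and 2096 CPM in gas and 1963, 1962 and 1885 CPM in dCAMP, with a log2 fold change of −0.43 (unadjusted p = 0.0204), which was −0.32 without gas 1 and −0.62 without gas 3. The other lower genes were PHLDA3, an inhibitor of AKT (−0.28), the receptor NOTCH1 (−0.26) and SERTAD1, a CDK4 regulator (−0.28). CCNG1 encodes cyclin G1 and ZMAT3 an RNA-binding protein, both induced by p53. CCNG1 had 147, 292 and 472 CPM in gas and 538, 556 and 551 CPM in dCAMP, a log2 fold change of 0.85 (SE 0.38, unadjusted p = 0.0658). ZMAT3 had 10.5, 25.7 and 55.8 CPM in gas and 68.2, 70.4 and 74.0 CPM in dCAMP, a log2 fold change of 1.21 (SE 0.54, unadjusted p = 0.066). Both had dCAMP above all gas libraries and gas 1 lowest, as MDM2, SESN1 and RRM2B did. Without gas 1 and without gas 3 the log2 fold changes were 0.51 and 1.28 for CCNG1, and 0.78 and 1.92 for ZMAT3. GDF15, a stress cytokine, had a log2 fold change of −0.21 with an adjusted p of 0.527.

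Of the 13 other death targets tested, 1 was higher and 2 lower, where 6.81% and 13.9% of all genes were. Without gas 1 the counts were the same (8.75% and 11.8% of all genes), and without gas 3 they were 4 and 3 (23.8% and 25.5%). PERP, a desmosome-associated membrane protein that p53 and p63 induce in epidermis, had 705, 790 and 1019 CPM in gas and 1279, 1232 and 1230 CPM in dCAMP. It was higher in 3 of 3 dCAMP libraries, with a log2 fold change of 0.57 (SE 0.14, unadjusted p = 0.00577, adjusted p = 0.221), which was 0.45 without gas 1 and 0.69 without gas 3. DESeq2 gave PERP an adjusted p of 0.0498 on all genes and 0.0786 on genes with a count in every library. PIDD1, the scaffold of the caspase-2 complex, was lower at −0.37, and FDXR, a mitochondrial ferredoxin reductase, at −0.34. PMAIP1, which encodes the BH3-only protein NOXA, was at 1.37 to 1.93 CPM, with a log2 fold change of 0.25 (adjusted p = 0.340).

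Of the 12 other antioxidant and metabolic targets, 3 were higher and 2 lower, where 6.81% and 13.9% of all genes were. Without gas 1 the counts were the same (8.75% and 11.8% of all genes), and without gas 3 they were 5 and 4 (23.8% and 25.5%). The other sestrins had fold changes of opposite sign. SESN3 had 20.5, 36.8 and 60.6 CPM in gas and 83.5, 75.7 and 89.4 CPM in dCAMP, a log2 fold change of 1.07 (SE 0.37, unadjusted p = 0.0249, adjusted p = 0.223), higher in 3 of 3 dCAMP libraries as SESN1 was. Without gas 1 it was 0.75, and without gas 3 it was 1.49. SESN2 had 74.9, 62.4 and 58.6 CPM in gas and 53.99, 42.9 and 55.9 CPM in dCAMP, with dCAMP below gas in every library and a log2 fold change of −0.36 (unadjusted p = 0.0511), which was −0.27 without gas 1 and −0.48 without gas 3. Also higher were NQO1, a quinone reductase (0.43, unadjusted p = 0.00509), and TIGAR, which lowers glycolytic flux (0.71, unadjusted p = 0.0274). Lower were ALDH4A1, a mitochondrial enzyme of proline breakdown (−0.34), and GPX1, a glutathione peroxidase (−0.29). Of 11 repair targets tested, 0 were higher and 1 lower, TP53I13 (−0.37), whose part in repair is not established. The repair counts were 1 and 1 without gas 1 (8.75% and 11.8% of all genes), and 2 and 5 without gas 3 (23.8% and 25.5%).

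Downstream of p21, 15 genes repressed through the DREAM complex were all tested. At an unadjusted p under 0.05, 0 were higher and 5 lower, where 6.81% and 13.9% of all genes were, and 7 had all dCAMP libraries below all gas libraries, as 20.9% of all genes did. MCM5, a subunit of the replicative helicase, was the lowest by p, with a log2 fold change of −0.54 (unadjusted p = 0.0011, adjusted p = 0.221 in edgeR, 0.00881 and 0.0194 under the 2 DESeq2 filters). CDC20, an activator of the anaphase-promoting complex, was at −0.60, PLK1, a mitotic kinase, at −0.42, and FOXM1, a G2 transcription factor, at −0.36. By adjusted p, DESeq2 called 3 of the 15 lower on all genes (MCM5, CDC20 and FOXM1) and 2 under its other filter (MCM5 and CDC20). Of all genes, 1.48% and 1.05% passed there in either direction. Without gas 3, 5 of the 15 were lower and 0 higher, where 33.1% of all genes passed. With voom weights 9 were lower and 1 higher, where 60.8% passed. Without gas 1 the counts at an unadjusted p under 0.05 were 0 higher and 7 lower (8.75% and 11.8% of all genes). Without gas 3 they were 1 and 6 (23.8% and 25.5%). The 11 genes listed as cell cycle partners of p21 were cyclins, their kinases, RB1 and the inhibitors CDKN1B and CDKN1C. At an unadjusted p under 0.05, 2 of them were higher, CCND2 (0.51) and CCNE2 (0.58), and 1 was lower, CDK4 (−0.33). Of all genes, 6.81% and 13.9% were. For these 11 genes the counts were the same without gas 1 (8.75% and 11.8% of all genes), and 4 and 2 without gas 3 (23.8% and 25.5%). CDKN1A RNA overlapped between groups, and its part in the values of these lists was not tested.

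**Figure D4:**
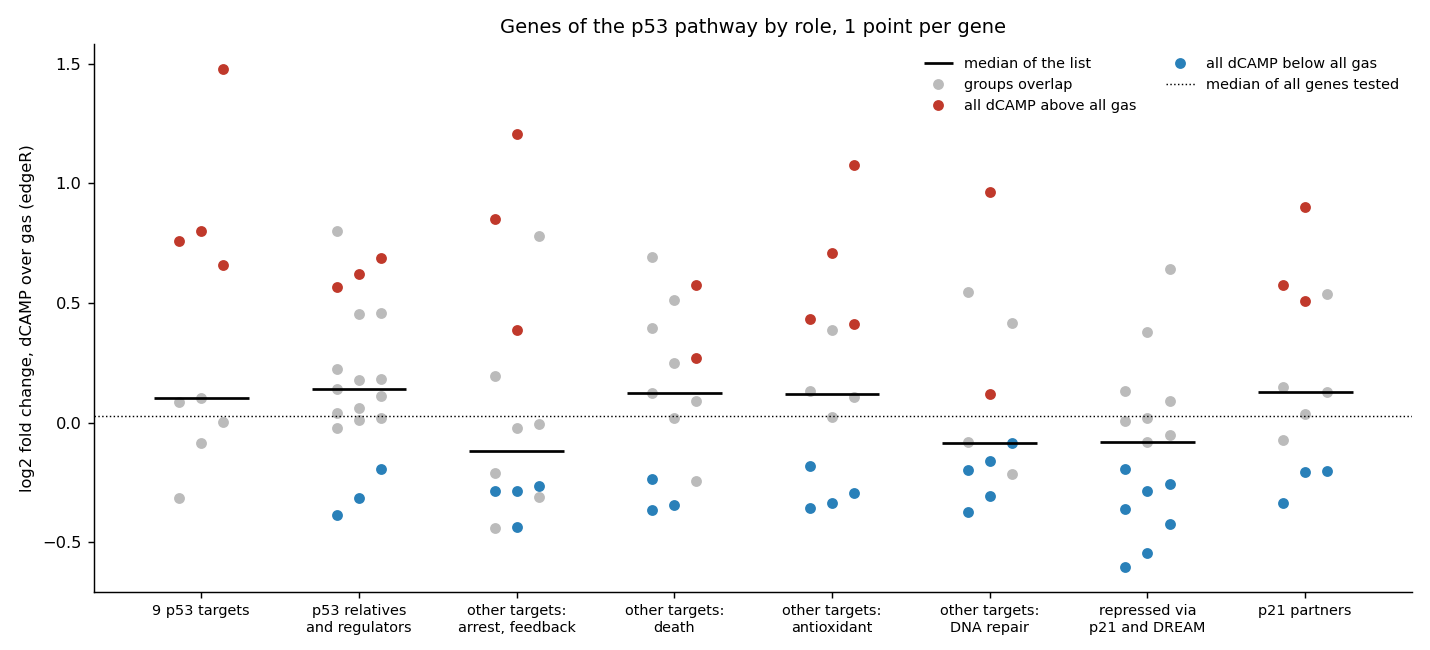
Log2 fold change (dCAMP over gas, edgeR) of each gene tested among the 9 p53 targets, relatives and regulators of p53, other p53 targets by role, genes repressed through the DREAM complex and p21 partners (points: red, all dCAMP libraries above all gas libraries; blue, all below; gray, overlap), with the list medians (bars) and the median of all genes tested (dotted line). The medians lie between −0.12 and 0.14, and single genes lie on both sides of 0 in each list.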

How the data were processed

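RNA-Seq of 3 gas and 3 dCAMP libraries was analysed from 1 gene table and 1 transcript table. The authors trimmed reads (Trimmomatic 0.38), mapped them to CanFam3.1 with HISAT2 2.1.0 and summarized known transcripts with StringTie 2.1.3b, per the submitters' processing notes. The deposited read counts are whole numbers without normalization, and the gene counts equalled the sums over transcripts. FPKM, as deposited, corrects for length and for mapped reads. The 12 TPM columns were not used. The annotation release and the counting of overlapping genes are not given in the sources used here. Rows without a symbol held at most 0.0264% of counts.

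Counts were tested with R 4.3.3 and edgeR 4.0.16: TMM, filterByExpr, quasi-likelihood test, prior count 2, Benjamini-Hochberg adjustment over 14708 genes. Genes were called either at an unadjusted p under 0.05 together with a 2-fold difference, or at an adjusted p under 0.05. limma 3.58.1 and DESeq2 1.42.0 served the alternatives: DESeq2 with 2 filters, other scalings and filters, voom weights, FPKM with pseudocounts of 1 or 0.1, a gene length correction, the replicate number as a block, and each library left out. Steps were tested on simulated counts in which both groups had the same variability. The wider spread of the gas libraries was not part of that simulation. The labels do not say whether the libraries were separate cultures, so p-values measure the spread between these samples.

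The genes, lists and tests were chosen with earlier results of these data known. Named beside the 9 were, per list, up to 4 genes without overlap between groups and with an unadjusted p under 0.05, by smallest p, and MDM4, PPM1D, SESN2, SESN3, SFN, GDF15, CCNG1, ZMAT3 and PMAIP1. One gene of this rule is not reported here. TIGAR, which the limit of 4 left out, was named after its values were seen. The comparison of implied lengths, the separation under other scalings and the list counts under each alternative were added after seeing the data.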

Additional observations from a re-analysis of the deposited data

How the results depend on the processing

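The call of 161 genes by the 2-fold rule became 369 and 327 with DESeq2 on all genes and on genes with a count in every library, 279 without a filter, 1010 with voom weights, 373 on FPKM plus 0.1, and 135 to 1523 with 1 library left out. The 0 genes at an adjusted p under 0.05 became 301 and 161 with DESeq2, 8944 with voom weights, 3 on FPKM plus 0.1 and 0 to 4953 with 1 library left out. Of the 161 genes, 141 were higher (87.6%); the share was 76.7% without a filter, 99.3% on FPKM plus 1, 68.3% without dCAMP 1 and 69.1% without dCAMP 3. Among the 9 targets, the 1 called by the 2-fold rule became 0 with the gene length correction and 0 to 3 with 1 library left out (0 without dCAMP 1 or dCAMP 3, 3 without gas 3), and the 0 past the adjusted threshold became 6 with voom weights and 0 to 4 with 1 library left out (4 without gas 3). The median log2 fold change of the 9 stayed between 0.02 and 0.19. The cause of these differences was not tested.

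The sign of BBC3 changed with DESeq2 (−0.0130 and −0.0129), RLE factors (−0.0077), upper-quartile factors (−0.0977), no filter (−0.0053), at least 10 counts (−0.0239), voom weights (−0.0281) and with 1 library left out (−0.1948 to 0.1263). That of CDKN1A changed with upper-quartile factors (−0.0090) and with 1 library left out (−0.0402 to 0.1938), that of GADD45A with voom weights (−0.0435) and with 1 library left out (−0.0212 to 0.1668), and that of BAX with 1 library left out (−0.2374 to 0.0293). MDM2, FAS, SESN1, TP53INP1 and RRM2B kept their sign in every alternative.

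Replicate numbers are shared by the groups, but deviations from the group means correlated at 0.130, 0.0237 and 0.0479 for numbers 1, 2 and 3, so the numbers were not taken to pair the samples. Gas 1 correlated best with dCAMP 1 and gas 2 with dCAMP 2, each its own number, but gas 3 correlated best with dCAMP 2 (0.0873). The replicate block gave 435 genes by the 2-fold rule, 471 together with the length correction, 0 by adjusted p, and 1 of the 9 targets.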

Other observations

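For the 4 targets whose groups did not overlap, the genes with the most similar pattern were sought by the Euclidean distance between centred log2 CPM values over the 6 libraries, a description across libraries that share their depth and scaling. For MDM2 they were CCNH, CROT and NCK1, at distances of 0.153, 0.155 and 0.166. For SESN1 they were MCUB, FLRT3 and SKAP2, at 0.0818, 0.0881 and 0.0889. For RRM2B they were RPS6KA3, DBX2 and ATP2B1, at 0.0842, 0.0917 and 0.0952. TP53INP1 had no comparably close gene: the nearest were CATSPERG, CLDN20 and MKX, at 0.429, 0.574 and 0.752, on CPM values that include its low gas 3 count.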
